A study of Mus musculus with 12 samples.

Results

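Neuropeptide and secretogranin precursors were followed across bulk RNA-seq of the mouse ventral spinal cord at E12.5. The set holds 40 genes of the 45777 in the tables, listed by name and found by matching their NCBI gene identifiers to mouse symbols, and they were separated into those with a mean TPM (a share of all transcripts in a library, corrected for transcript length) of 1 or more and the rest. Of the 40, 25 had a mean of 1 or more and 15 did not. The last gene inside was *Edn1*, at a mean of 1.17 TPM, and the first outside was *Vip*, at 0.937 TPM.

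Tissue was trimmed around the *Hb9::GFP* reporter, a transgene in which the Hb9 promoter marks motor neurons (MNs), but the GFP+ cells were not sorted, so each library also holds RNA of the surrounding cells. Each of the 2 levels, brachial and lumbar, was sampled in 3 libraries of *Isl2* +/- embryos (Het) and 3 of *Isl2* -/- embryos (KO), and no wild-type library was compared. *Isl2* is a LIM homeodomain transcription factor of postmitotic MNs. Its rescaled level, in TPM divided by a size factor for each library, was 8.89 ± 0.713 (SD, n = 3) in brachial Het, 5.91 ± 1.40 in brachial KO, 9.36 ± 0.937 in lumbar Het and 7.34 ± 0.850 in lumbar KO, so *Isl2* transcript was still read in the KO libraries. All 7 MN markers examined were at a mean of 1 TPM or more, and 8 of 9 markers of dorsal interneurons were as well.

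Neuropeptides are cut out of larger secreted precursors by prohormone convertases and carboxypeptidases inside dense-core granules, and act on G protein-coupled receptors. Granins are acidic proteins that help to build those granules and are themselves cut into peptides. In the spinal cord, peptide genes mark classes of dorsal horn interneurons, sensory afferents and some MNs.

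Upstream sequence is shown for 4 of the most abundant members, since their promoters share one full cAMP response element (CRE), the palindrome TGACGTCA bound by CREB family factors. Each line gives the 120 bases just before the RefSeq start of the gene (GRCm38.p6), 5′ to 3′ on the strand of the gene, with the CRE in capitals.
*Cartpt*, chr13:99900684-99900803, minus strand: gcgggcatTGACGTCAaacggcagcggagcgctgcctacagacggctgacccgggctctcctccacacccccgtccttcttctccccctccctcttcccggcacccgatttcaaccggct
*Sst*, chr16:23890845-23890964, minus strand: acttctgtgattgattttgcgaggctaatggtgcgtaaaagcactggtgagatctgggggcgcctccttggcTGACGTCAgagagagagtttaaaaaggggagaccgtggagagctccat
*Scg2*, chr1:79440027-79440146, minus strand: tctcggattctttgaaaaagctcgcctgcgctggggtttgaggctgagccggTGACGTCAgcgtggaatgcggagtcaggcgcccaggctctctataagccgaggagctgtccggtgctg
*Chgb*, chr2:132781522-132781641, plus strand: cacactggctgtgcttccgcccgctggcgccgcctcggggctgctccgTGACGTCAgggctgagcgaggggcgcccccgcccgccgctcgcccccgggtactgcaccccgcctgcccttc

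The CRE began 112 bases before the start in *Cartpt*, 72 in *Chgb*, 68 in *Scg2* and 48 in *Sst*. For *Cartpt* and *Sst* that start lies inside the longer gene span of the tables. RefSeq windows of 300 bases (250 before and 50 after the start) were found for 33 of the 40 members, and 8 motifs, chosen with the members known, were searched on both strands. TGACGTCA was in 5 of the 33, these 4 and *Ucn* (15.2%), and in 2.03% of the 27025 genes with a window. The shorter core TGACG, which every full CRE also holds, was in 18 members and 23.0% of genes. TATAAA was in 6 members and 15.7% of genes, TAATTA in 3 and 6.12%, TGACGCAA in 2 (*Calca* and *Tac1*) and 0.562%, CCAAT in 13 and 41.1%, CAGCTG in 8 and 18.3%, and CAGCACC in 3 and 8.14%. These matches are a description and were not tested, and the 4 genes printed did not share one pattern in the libraries, as the values that follow show.

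All 6 granins were at a mean of 1 TPM or more, and together they made up 50.1% to 64.4% of the summed level of the 40 members in each library. *Scg5*, which encodes the chaperone of prohormone convertase 2, had the highest mean of any member, 166 TPM. *Scg3*, an adaptor of granule cargo, had a mean of 106 TPM and ran from 88.6 to 115 rescaled TPM in the 12 libraries. *Scg2*, the precursor of secretoneurin, had a mean of 52.3 TPM, *Chga* 49.8 TPM and *Chgb* 47.9 TPM, whereas *Vgf*, a neurotrophin-induced granin, was at 2.73 TPM.

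Among the peptide precursors, 3 stood with the granins. *Sst* (somatostatin) had a mean of 117 TPM, *Npy* (neuropeptide Y) 60.4 TPM and *Cartpt*, the precursor of the CART peptides, 48.1 TPM. *Tac1*, the precursor of substance P and neurokinin A, followed at 26.9 TPM, then *Pnoc* (nociceptin) at 14.1 TPM and *Adcyap1*, the precursor of PACAP, at 10.3 TPM. These 11 genes were the members at 10 TPM or more. Neighbours in this order were often not separate: the libraries of *Scg2*, *Chga* and *Chgb* ranged from 36.6 to 80.7, from 33.2 to 59.4 and from 33.3 to 59.0 rescaled TPM.

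The other 14 members above the limit lay between 1 and 10 TPM. Of the opioid precursors, *Pdyn* (dynorphin) had a mean of 6.73 TPM, *Penk* (enkephalin) 4.11 TPM and *Pomc*, the precursor of β-endorphin and melanocortins, 2.34 TPM. Of the bombesin family, *Grp* (gastrin-releasing peptide) was at 6.48 TPM and *Nmb* at 3.42 TPM. *Calca*, which encodes CGRP and calcitonin, was at 2.07 TPM and its paralogue *Calcb* at 1.62 TPM, and because they share sequence their reads may be divided imperfectly between them. The rest were *Nms* (neuromedin S, 3.24 TPM), *Nppc* (C-type natriuretic peptide, 2.16 TPM), *Adm* (adrenomedullin, 1.89 TPM), *Nts* (neurotensin, 1.78 TPM), *Gal* (galanin, 1.39 TPM) and *Edn1* (endothelin, 1.17 TPM).

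Of the 15 members under 1 TPM, 8 had a mean of 0.1 TPM or more and 5 a mean below that, and no library of any of them passed 1.86 rescaled TPM. *Avp* and *Iapp* were listed at 0 in all 12 libraries. The group also holds *Oxt*, *Crh*, *Ucn*, *Gnrh1* and *Trh*. Across all genes, 32.7% had a mean of 1 TPM or more.

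**Figure D1:**
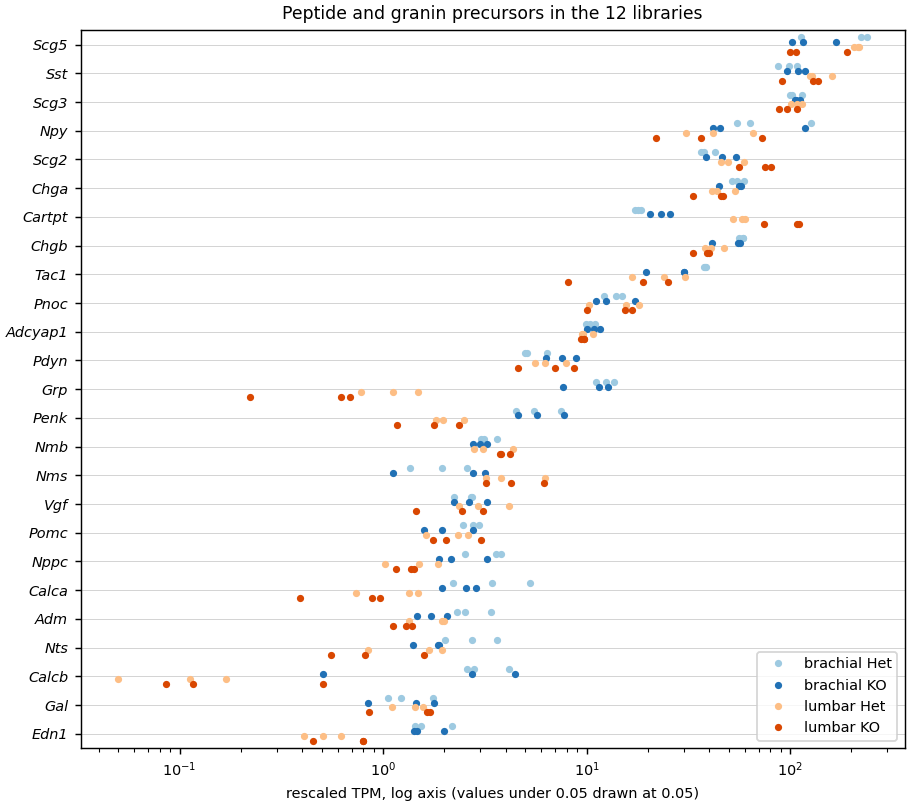
Rescaled TPM (log axis) of the 25 members with a mean of 1 TPM or more in each of the 12 libraries, ordered by mean, with points coloured by level and genotype. The points of *Scg3* lie close together, between 88.6 and 115, while those of *Grp*, *Penk*, *Calcb* and *Edn1* fall into separate brachial and lumbar sets, and *Calcb* in lumbar Het reaches 0 in 1 library.

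The comparison of levels showed the widest differences among the members. Among members averaging 0.5 TPM or more, *Grp*, *Calcb*, *Calca*, *Penk*, *Edn1* and *Nppc* were higher in all 6 brachial libraries than in all 6 lumbar ones. *Cartpt* was higher in all 6 lumbar libraries, as was *Nms*. Under that limit, *Pthlh* was also separated on the brachial side. Such separation was seen for 4.68% of all genes on the brachial and 3.64% on the lumbar side. Over both genotypes, 28 members had a mean TPM of 0.5 or more and were tested, and at an adjusted p under 0.05 (limma, adjusted over all genes) 11 were higher in brachial libraries, as were 9.65% of all genes tested, and 3 in lumbar libraries, as were 8.88%. The median log2 fold change (lumbar over brachial) of the 28 was −0.11, against 0.01 over all genes. In bulk tissue, fewer cells of a type and less RNA per cell cannot be told apart.

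*Grp*, a peptide of itch and arousal circuits, had a strong brachial bias. It stood at 12.49, 13.6 and 11.1 rescaled TPM in the brachial Het libraries and at 12.7, 11.5 and 7.70 in brachial KO. The lumbar values were 0.778, 1.48 and 1.12 in Het and 0.622, 0.221 and 0.685 in KO. The lowest brachial library was therefore above the highest lumbar one by several-fold, and the log2 fold change (lumbar over brachial, on the log2(TPM + 0.1) scale) was −3.80 ± 0.25 (SE, adjusted p = 1.46e-06, limma).

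*Calcb* and *Calca*, neighbouring genes of the CGRP family, were both brachial. *Calcb* was at 2.59, 4.18 and 2.81 rescaled TPM in brachial Het and at 2.74, 4.47 and 0.506 in brachial KO, against 0, 0.113 and 0.169 in lumbar Het and 0.0854, 0.505 and 0.116 in lumbar KO. Library 3 of brachial KO (0.506) and library 2 of lumbar KO (0.505) nearly met, while the other libraries of the levels lay far apart (log2 fold change −3.48 ± 0.51, adjusted p = 0.00102, limma). With lumbar values this near 0 the size of the difference depended on the pseudocount, at −4.52 with 0.01 and −1.64 with 1, where that of *Grp* was −3.99 and −2.80. *Calca* averaged 3.04 ± 1.20 (SD, n = 6) in brachial and 0.967 ± 0.400 in lumbar libraries (−1.58 ± 0.26, adjusted p = 0.00181, limma).

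CGRP genes are also strong in sensory neurons. Of 7 sensory neuron markers, 2 were at a mean of 1 TPM or more and *Scn10a* was at 0 in every library. Their summed level ran from 3.28 to 6.58 rescaled TPM in the brachial libraries and from 3.34 to 5.29 in the lumbar ones, so the levels overlapped in it.

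*Penk*, the enkephalin precursor, ran from 4.53 to 7.71 rescaled TPM in the 6 brachial libraries and from 1.17 to 2.50 in the 6 lumbar ones, with no overlap (−1.57 ± 0.19, adjusted p = 0.000276, limma). The other opioid precursors differed less: the log2 fold change was 0.03 ± 0.16 for *Pdyn*, 0.05 ± 0.16 for *Pnoc* and −0.11 ± 0.18 for *Pomc*, and none passed the test. *Edn1*, a vasoconstrictor of endothelial cells, ran from 1.43 to 2.18 in brachial and from 0.408 to 0.800 in lumbar libraries (−1.37 ± 0.19, adjusted p = 0.000839, limma). The summed level of 6 endothelial markers, all above 1 TPM, ran from 42.3 to 49.0 in brachial and from 36.2 to 43.5 in lumbar libraries. The part of endothelium in the *Edn1* difference was not tested.

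*Nppc*, which guides branching of sensory axons, was also higher at the brachial level (−0.98 ± 0.18, adjusted p = 0.00364, limma). *Nts*, *Tac1*, *Adm* and *Chgb* were higher there with overlapping libraries, at log2 fold changes of −0.87 ± 0.26, −0.73 ± 0.24, −0.52 ± 0.15 and −0.45 ± 0.08 and adjusted p-values of 0.0325, 0.0484, 0.0299 and 0.00323 (limma). Of the members under 1 TPM, only *Vip*, *Gnrh1* and *Cck* (cholecystokinin) averaged 0.5 TPM or more and were tested for level. Of these, *Cck* passed (−1.43 ± 0.44, adjusted p = 0.0399, limma). Its call, like those of *Tac1*, *Nts* and *Adm*, was lost when any of several libraries was left out, and without library 2 of brachial Het, library 1 of brachial KO or library 2 of lumbar KO the brachial count fell from 11 to 7.

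At the lumbar level, *Cartpt* had the largest difference. It was at 17.2, 17.9 and 18.6 rescaled TPM in brachial Het and 25.7, 23.1 and 20.4 in brachial KO, and at 59.8, 52.4 and 58.1 in lumbar Het and 110, 109 and 74.3 in lumbar KO. Every lumbar library was above every brachial one (1.86 ± 0.11, adjusted p = 4.47e-07, limma). *Nms* averaged 2.16 ± 0.820 (SD, n = 6) in brachial and 4.48 ± 1.39 in lumbar libraries, and *Scg2* 42.7 ± 6.61 and 61.2 ± 13.9 (log2 fold changes of 1.05 ± 0.27 and 0.50 ± 0.11, adjusted p-values of 0.0169 and 0.0073, limma). The other granins did not follow Scg2: besides *Chgb*, which was higher at the brachial level, *Chga* (−0.30 ± 0.10, adjusted p = 0.0519), *Scg3* (−0.06 ± 0.06), *Scg5* (0.11 ± 0.20) and *Vgf* (0.00 ± 0.20) did not pass the test in limma.

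**Figure D2:**
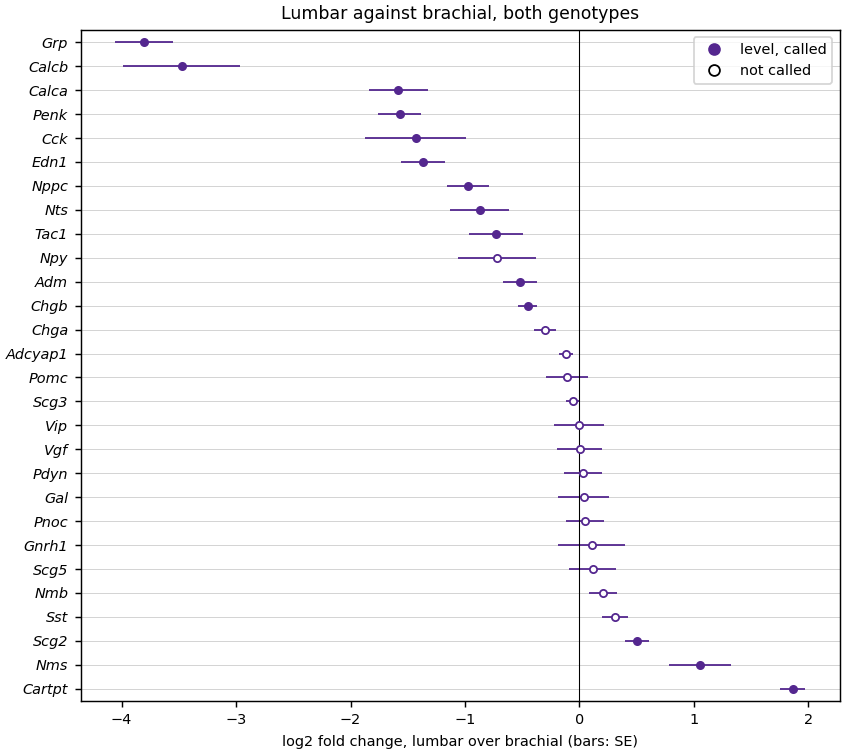
Log2 fold change of lumbar over brachial libraries, over both genotypes, for the 28 members tested, with bars of 1 SE and filled points at an adjusted p under 0.05. *Grp* (−3.80) and *Calcb* (−3.48) lie far on the brachial side, *Cartpt* (1.86) and *Nms* (1.05) on the lumbar side, and *Scg3*, *Vgf*, *Pdyn*, *Gal* and *Pnoc* lie near 0.

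Within either genotype alone, with 3 libraries against 3, *Grp*, *Penk* and *Cartpt* passed the test in both. *Grp* differed by −3.39 ± 0.22 on the log2 scale in Het (adjusted p = 0.000432, limma) and by −4.21 ± 0.37 in KO (adjusted p = 0.00305). *Penk* differed by −1.41 ± 0.21 in Het (adjusted p = 0.0181, limma) and −1.73 ± 0.29 in KO (adjusted p = 0.0409). *Cartpt* differed by 1.66 ± 0.07 in Het (adjusted p = 4.9e-05, limma) and 2.06 ± 0.16 in KO (adjusted p = 0.00168). *Calcb*, *Edn1* and *Chgb* passed in Het alone, and whether Het and KO differed in this was tested by the interaction given further on.

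At the brachial level, no member passed an adjusted p of 0.05 between KO and Het (29 tested, limma, smallest adjusted p = 0.359), against 0.0059% of all genes, and 5 had an unadjusted p under 0.05, against 13.8%. By the threshold of the study, a log2 fold change beyond 0.5 with an unadjusted p under 0.05, 3 members were lower in KO, against 0.874% of all genes, and 0 were higher, against 2.23%. The 3 were *Tac1*, *Nts* and *Adm*, each with all 3 KO libraries below all 3 Het libraries, as were 10.3% of all genes. The median log2 fold change (KO over Het) of the 29 was −0.07, against −0.01 over all genes.

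*Tac1* was at 38.6, 37.8 and 38.1 rescaled TPM in brachial Het and at 30.0, 30.3 and 19.7 in brachial KO. The Het libraries were nearly equal and library 3 of KO was the lowest (log2 fold change −0.54 ± 0.16, adjusted p = 0.359, limma). *Nts* was at 2.02, 3.64 and 2.73 in Het and 1.86, 1.88 and 1.40 in KO (−0.65 ± 0.25, adjusted p = 0.359, limma), and *Adm* at 3.38, 2.52 and 2.301 in Het and 2.07, 1.46 and 1.71 in KO (−0.61 ± 0.22, adjusted p = 0.359, limma). With TPM as deposited, which moved the median of all genes to 0.16 on the log2 scale, none of the 3 passed the threshold. *Nts* no longer passed it without library 2 or 3 of Het, nor *Adm* without library 1 of Het or library 2 of KO, and without library 1 of KO the lower count was 5, with *Npy* and *Nppc* besides.

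Library 3 of brachial KO also stood apart in the summed marker levels. The 6 erythroid markers, all above 1 TPM, summed to 2540 rescaled TPM in it and to between 1220 and 1442 in the other brachial KO libraries. Of the 6 brachial libraries it was also the highest in MN markers (231 against 198 to 211 in the other 5), preganglionic MN markers (26.7 against 18.0 to 24.2), ventral interneurons (31.5 against 19.4 to 23.1), floor plate (22.9 against 17.4 to 20.7), mesenchyme and cartilage (65.3 against 40.6 to 58.2) and sensory neurons (6.58 against 3.28 to 5.89). Single markers did not all follow these sums. *Foxp1* was at 43.7 rescaled TPM in this library and at 26.2 to 30.2 in the other 5, and *Mnx1*, *Lhx3* and *Slc18a3* were also highest in it. *Isl1* (50.7) and *Chat* (7.44) lay below all brachial Het libraries. Of the sensory markers, *Prdm12* was highest in it (2.29) and *Avil* lowest (0.401). The library was the lowest in endothelium (42.3 against 44.0 to 49.0), microglia (5.32 against 5.47 to 8.97) and skeletal muscle (0.305 against 0.561 to 1.497). Without it, *Tac1* differed by −0.34 on the log2 scale and no longer passed the threshold, nor did *Nts* at −0.52, while *Pdyn* did, at 0.58, and *Scg5*, at −0.74. The part of this tissue makeup in these differences was not tested.

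*Cartpt* was higher in all 3 brachial KO libraries than in Het, as were 9.67% of all genes, but by less than the fold threshold (0.36 ± 0.10, adjusted p = 0.359, limma). *Pdyn* was at 4.96, 6.39 and 5.07 rescaled TPM in Het and 7.58, 8.86 and 6.35 in KO, which overlapped narrowly (0.46 ± 0.16, adjusted p = 0.359, limma).

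At the lumbar level, *Cartpt* was higher in KO and *Scg5* and *Grp* lower by the same threshold. No member passed an adjusted p of 0.05 (26 tested, limma), and 4 had an unadjusted p under 0.05, against 4.88% of all genes. The 1 higher member stood against 0.975% of all genes and the 2 lower against 0.793%, and all 3 had KO and Het libraries that did not overlap, as had 4.43% of all genes on the higher and 5.51% on the lower side. The median of the 26 was −0.15, against −0.01 over all genes. With embryo sex as a term, which was added after seeing the data because 2 lumbar Het and 1 lumbar KO libraries were female, 4 members were lower, with *Tac1* (−0.89) and *Calca* (−0.90) besides, and 2 higher, with *Scg2* (0.54).

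*Cartpt*, with 110, 109 and 74.3 rescaled TPM in lumbar KO against 59.8, 52.4 and 58.1 in Het, had a log2 fold change of 0.76 ± 0.15 (adjusted p = 0.986, limma). It passed the threshold in each of 19 other fits, between 0.66 and 0.95. Library 3 of KO, the lowest of the 3, was also the lowest lumbar library in the summed level of 7 MN markers, 162 against 189 to 257 in the other lumbar libraries, and in those of ventral interneurons (26.6 against 30.7 to 44.6), floor plate (16.2 against 19.6 to 26.9) and Schwann and crest cells (15.2 against 21.3 to 26.0), and the highest in that of dorsal interneurons (49.9 against 27.6 to 45.5). The part of this tissue makeup in the difference was not tested. *Scg2* moved in the same direction without passing the fold threshold (0.45 ± 0.15, adjusted p = 0.999, limma), and it passed without library 1 of Het (0.55) or library 3 of KO (0.60).

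*Scg5* was at 205, 218 and 215 rescaled TPM in lumbar Het and at 100, 191 and 107 in lumbar KO (−0.75 ± 0.22, adjusted p = 0.999, limma), and it too passed in each of 19 other fits. Its libraries split into separate sets, 5 from 100 to 116 and 7 from 168 to 239 rescaled TPM, and the sets did not follow genotype alone. The low set held 1 brachial Het, 2 brachial KO and 2 lumbar KO libraries. In the brachial libraries the groups therefore overlapped, with 114, 223 and 239 in Het and 116, 103 and 168 in KO (−0.53 ± 0.30, adjusted p = 0.405). No other annotated gene overlaps *Scg5*.

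*Grp*, already near 1 TPM in lumbar Het, was lower in lumbar KO (−1.07 ± 0.43, adjusted p = 0.999, limma). The call rested on low values: without library 2 of lumbar KO, at 0.221 rescaled TPM, the log2 fold change was −0.66 and it did not pass, nor did it without library 2 (−0.87) or 3 (−1.06) of lumbar Het.

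*Cck* was not among the 26 members tested, because its lumbar mean lay under the limit of 0.5 TPM. It stood at 0.483, 0.773 and 0.421 rescaled TPM in lumbar Het and at 0, 0.150 and 0.157 in lumbar KO, so the groups did not overlap. With no limit on low values it was called lower in KO (−1.79 ± 0.46, adjusted p = 0.924, limma). With a KO library at 0, the size of that change depends on the pseudocount, here 0.1. *Scg5* was the other lower member, *Grp* lying just outside the threshold there. With all 12 libraries in one fit *Cck*, *Grp* and *Scg5* were all called lower.

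**Figure D3:**
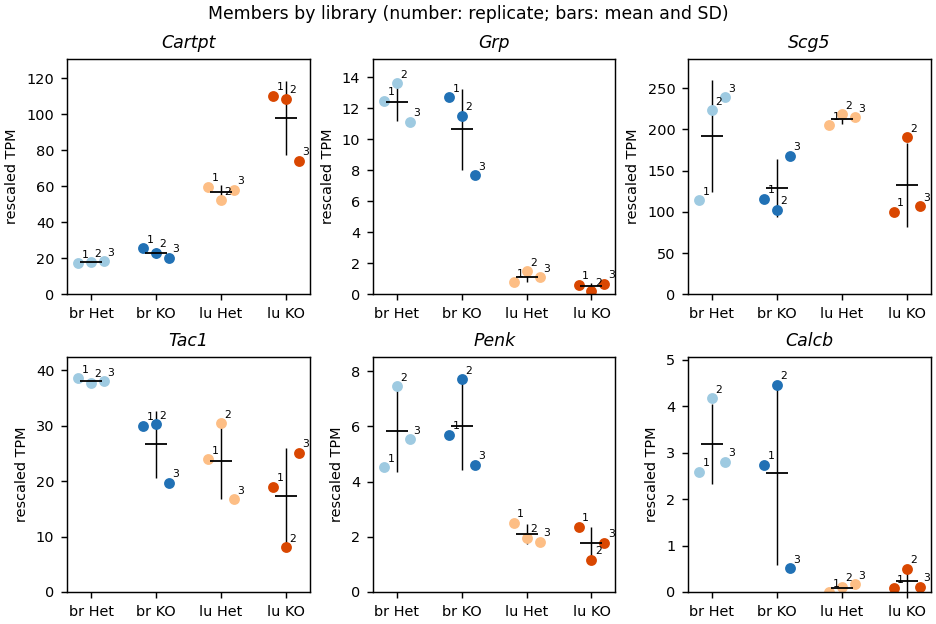
Rescaled TPM of 6 members in each library (points, numbered by replicate) with the mean and SD of each group of 3 libraries (br, brachial; lu, lumbar). *Cartpt* is higher in lumbar KO (74.3 to 110) than in lumbar Het (52.4 to 59.8), *Grp*, *Penk* and *Calcb* are brachial, *Tac1* is nearly equal in the brachial Het libraries, and *Scg5* has separate low and high libraries in 3 of the 4 groups.

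The KO effect was not shown to differ between levels for any member. Of 28 tested, 0 passed an adjusted p of 0.05 for the interaction of level and genotype (limma), 1 had an unadjusted p under 0.05, and over all genes 0 passed and 740 had such a p (4.42%). The 1 was *Cck*, at −1.74 ± 0.77 (adjusted p = 0.812, limma), a size that depended on the pseudocount (−3.02 with 0.01 and −0.51 with 1). Its brachial values, 0.884, 1.28 and 0.529 rescaled TPM in Het and 1.86, 0.647 and 0.423 in KO, overlapped between genotypes, and its lumbar values are given above. For *Cartpt* the KO effect was larger at the lumbar level by 0.41 ± 0.19 (adjusted p = 0.812), and for *Calcb* the interaction was 1.39 ± 0.99, for *Edn1* 0.40 ± 0.39 and for *Chgb* 0.01 ± 0.17.

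**Figure D4:**
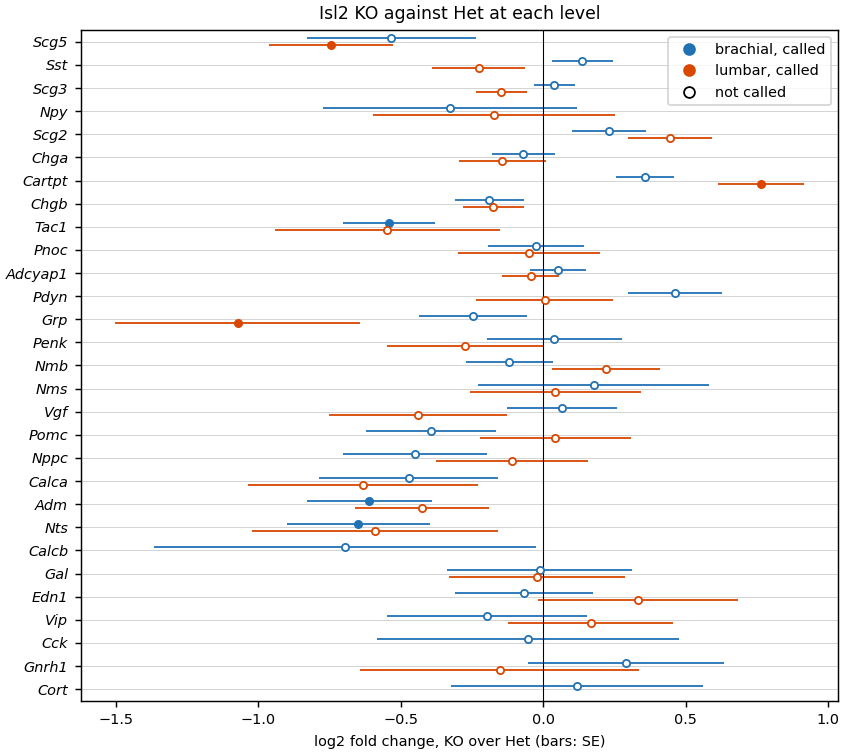
Log2 fold change of KO over Het at the brachial (blue) and lumbar (orange) levels for the members tested, in order of mean TPM, with bars of 1 SE and filled points past a log2 fold change of 0.5 at an unadjusted p under 0.05. *Tac1*, *Adm* and *Nts* are filled at the brachial level, *Scg5*, *Grp* and *Cartpt* at the lumbar level.

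*Npy* varied more within groups than between them. It was at 126, 63.7 and 54.8 rescaled TPM in brachial Het, 119, 45.1 and 41.7 in brachial KO, 41.7, 65.6 and 30.6 in lumbar Het and 36.6, 21.9 and 73.1 in lumbar KO. No test of genotype or level passed for it (−0.33 ± 0.44 brachial, −0.17 ± 0.43 lumbar, −0.72 ± 0.34 between levels, the last at an adjusted p of 0.165, limma). In each of the 4 groups the library highest in *Npy* was also the highest in *Lbx1*, *Tlx3* and *Ptf1a*, transcription factors of dorsal interneurons, a match that was noticed in the data. Of the 9 dorsal interneuron markers listed, *Lmx1b* matched in all 4 groups as well, *Lhx2* in 3, *Barhl1* and *Barhl2* in 2, and *Lhx9* and *Phox2a* in 1. The summed level of 9 dorsal interneuron markers ran from 38.6 to 54.0 in brachial Het, 36.9 to 54.3 in brachial KO, 28.3 to 45.5 in lumbar Het and 27.6 to 49.9 in lumbar KO. Their part in the spread of *Npy* was not tested.

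**Figure D5:**
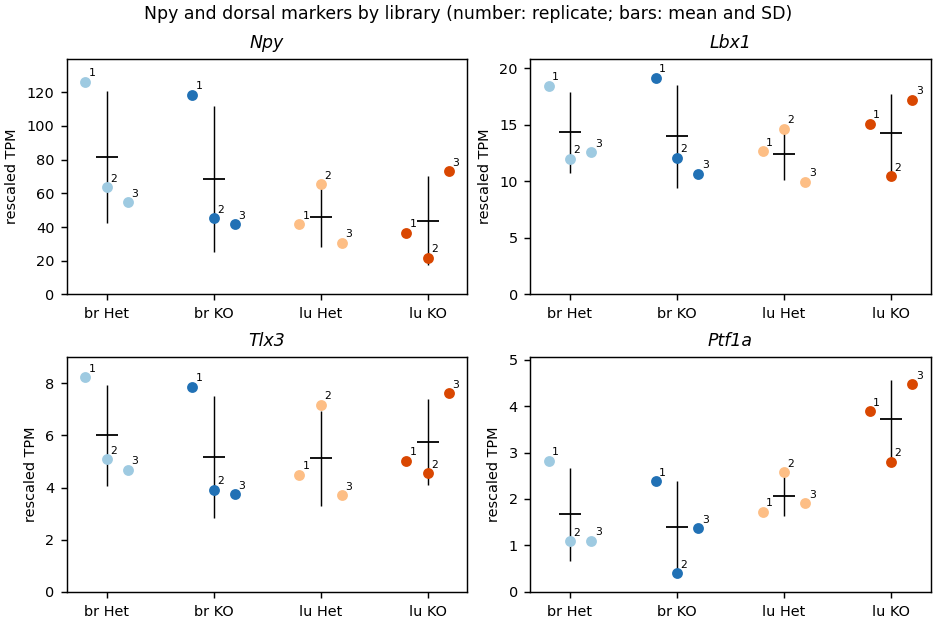
Rescaled TPM of *Npy* and of the dorsal interneuron genes *Lbx1*, *Tlx3* and *Ptf1a* in each library (points, numbered by replicate) with the mean and SD of each group of 3 libraries. In all 4 groups the same library is highest for the 4 genes, with *Npy* at 126, 119, 65.6 and 73.1 there.

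*Sst* did not pass a test (0.14 ± 0.11 brachial, −0.23 ± 0.16 lumbar, and 0.31 ± 0.12 between levels at an adjusted p of 0.0811, limma). *Adcyap1* stayed between 9.36 and 11.6 rescaled TPM in all 12 libraries. *Pnoc*, *Nmb*, *Vgf*, *Pomc* and *Gal* passed no test of genotype or level either.

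The genes that process and release these peptides were well represented. Of 26 listed processing enzymes and granule genes, 24 had a mean of 1 TPM or more, led by the carboxypeptidase *Cpe* (424 TPM), the granule GTPase *Rab3a* (158 TPM) and the synaptotagmin *Syt4* (135 TPM). Between genotypes 0 of them passed the threshold of the study at either level. Between levels, 10 of 24 tested were higher in brachial and 1 in lumbar libraries, against 9.65% and 8.88% of all genes. The 3 of smallest p on the brachial side were the prohormone convertase *Pcsk2* (19.8 ± 1.53 against 11.7 ± 0.735 rescaled TPM, SD, n = 6, adjusted p = 2.2e-05, limma), *Syt4* (157 ± 11.6 against 107 ± 4.77) and *Cadps2* (5.35 ± 0.488 against 2.70 ± 0.368), which primes granules for release. The 1 on the lumbar side was *Pam*, the enzyme that amidates peptides (28.4 ± 2.52 brachial, 37.7 ± 1.57 lumbar). The median log2 fold change of this list was −0.27, against 0.01 over all genes.

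Of 54 listed peptide receptors, 19 had a mean of 1 TPM or more, led by *Ednrb* (90.9 TPM), the nociceptin receptor *Oprl1* (80.3 TPM) and the neurotensin-binding *Sort1* (46.5 TPM). At the brachial level 0 passed the threshold between genotypes, against 0.874% of all genes lower in KO and 2.23% higher. At the lumbar level 1 was lower in KO, against 0.793%, and 0 higher, against 0.975%. The lower one was the galanin receptor *Galr1*, at 1.29 ± 0.293 in Het and 0.754 ± 0.130 rescaled TPM in KO (SD, n = 3). Its log2 fold change was −0.69 ± 0.28 (adjusted p = 0.999, limma). Between levels, 10 of 26 tested were higher in brachial and 3 in lumbar libraries, against 9.65% and 8.88% of all genes. On the brachial side the smallest p-values were those of *Sstr1* (5.64 ± 1.43 brachial, 1.94 ± 0.552 lumbar, SD, n = 6), *Npy2r* (1.29 ± 0.249 and 0.417 ± 0.128) and *Avpr1a* (1.08 ± 0.348 and 0.223 ± 0.121). On the lumbar side they were *Npr3*, the clearance receptor of natriuretic peptides (3.81 ± 0.541 brachial, 8.15 ± 0.761 lumbar), *Ednrb* (81.6 ± 4.68 and 100 ± 13.5) and *Pth1r* (13.0 ± 1.40 and 16.2 ± 1.90).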

How the data were processed

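Total RNA of 12 libraries was sequenced by the authors after ribosomal depletion with a stranded kit. Per the labels, FastQC 0.11.7, Trimmomatic 0.38, HISAT2 2.1.0, Bowtie2 2.3.4.1 and StringTie 2.1.3b were used, on mm10. StringTie gave the deposited TPM values, which sum to a fixed total in each library. The deposited FPKM values are a constant multiple of TPM within each library and were used only to read depth. The deposited coverage signal is the mean read coverage of a gene. The tables hold no counts, so the count test of the study was not run.

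Of 45777 identifiers, 45679 were given a symbol from RefSeq (GRCm38.p6). Aligned bases, read from coverage over FPKM, ranged from 4.48 to 6.64 Gb per library, and 22983 to 24191 genes had values above 0. Counting error per gene cannot be read from these values.

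TPM was divided by median-of-ratios size factors over the 12 libraries (0.896 to 1.25), and limma 3.58.1 in R 4.3.3 was run on log2(TPM + 0.1) with the trend option of eBayes, for genes averaging 0.5 TPM or more. The 6 libraries of a level were used to compare KO with Het. Levels were compared over all 12 with genotype as a term, and the interaction was fitted over all 12. Genotype calls used the threshold of the study, and level and interaction calls an adjusted p under 0.05 (Benjamini-Hochberg over all genes of the fit). The fits were checked on simulated data. Python 3.11.15, pandas 2.3.3 and matplotlib 3.10.9 were used for tables and plots.

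The members, the companion lists of processing genes and receptors, the marker lists and the motifs were chosen with earlier results of these data known. Every member with a mean of 1 TPM or more was named. Members under it were named with values where they passed a threshold. Genes of the companion lists were named where they passed the threshold between genotypes, were the 3 highest, or had one of the 3 smallest p-values per direction between levels. The size factors of all 12 libraries were kept after the calls with those of each fit alone had also been seen.

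Labels gave 3 animals per genotype, so some brachial and lumbar libraries may share an embryo, and the level test treated them as separate. By *Xist* and *Ddx3y*, 1 brachial Het library and 2 lumbar Het libraries were female, so these do not all come from the same embryos, and 3 of the 6 same-numbered brachial and lumbar pairs differed in sex. The alternatives changed the pseudocount (0.01 and 1) or the filter (none, or 1 TPM), or used TPM as deposited, quantile normalization, coverage, eBayes without a trend, a replicate block, all 12 libraries in one fit, each genotype alone, protein-coding genes, and each library left out. For the count of members expressed, limits of 0.5 and 2 TPM and rescaled TPM were tried. Embryo sex as a term and size factors from the libraries of each fit were added after seeing the data.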

Additional observations from a re-analysis of the deposited data

How the results depend on the processing

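The count of 25 members at 1 TPM or more was 28 at a limit of 0.5 TPM and 20 at 2 TPM, and stayed at 25 without any one library. The brachial count of members lower in KO, 3, was 1 with a pseudocount of 1 and with all 12 libraries in one fit, and 0 with TPM as deposited, where the count of members higher in KO was 2 in place of 0. Leaving out each library gave 2 to 5 lower and 0 to 1 higher. The lumbar count of members lower in KO, 2, was 1 with a pseudocount of 1, a filter at 1 TPM, coverage in place of TPM or the replicate block, and 1 to 2 when each library was left out, and the count of members higher was 1 to 2. With no filter it was again 2, but *Cck* took the place of *Grp*. With embryo sex as a term, an alternative chosen after seeing the data, the lumbar counts were 4 lower and 2 higher. Size factors from the libraries of each fit, also chosen later, gave 3 and 0 at the brachial and 2 and 1 at the lumbar level, as in the report. Of the level counts, 11 brachial and 3 lumbar, 5 and 1 were called with Het libraries alone and 2 and 1 with KO libraries alone, fits with fewer samples, and 7 to 12 and 3 to 4 when each library was left out. The interaction gave 0 throughout. Where the cause of a change is not given by the construction of the alternative, the cause was not tested.

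Over all genes, TPM as deposited moved the median log2 fold change to 0.16 for brachial KO, to −0.13 for lumbar over brachial and to −0.17 for the interaction, and the share of calls that were higher in KO rose at the brachial level from 71.8% to 96.3%, with 56.7% after quantile normalization. The share of level calls higher at the lumbar level was 47.9% with size factors and 22.6% as deposited. Same-numbered libraries correlated between −0.30 and 0.47 in their deviations from group means, with 5 of 12 pairs over 0.1. These pairs include Het with KO libraries, which cannot share an embryo. Between brachial and lumbar libraries the values were −0.05, 0.28 and 0.47 in Het and 0.02, −0.26 and 0.07 in KO. They do not settle whether some share an embryo. The numbers were not taken as pairs in the main fits, and the replicate block was used only as an alternative. With that block the level counts were 9 and 3: *Tac1*, *Nts* and *Cck* did not pass (adjusted p of 0.0764, 0.0519 and 0.0883 in limma) and *Chga* did, on the brachial side (0.0212). Of the single-gene values of called members under the alternatives, 0 reversed and those of *Grp*, *Penk* and *Cartpt* between levels and of *Cartpt* and *Scg5* at the lumbar level passed in each fit run. With 3 libraries per group and no counts, differences in members near 1 TPM rest on few reads.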
